A study of Homo sapiens with 9 samples.

Results

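The p53 pathway genes described here are 32 genes of the p53 response and its feedback loop, chosen by symbol from published knowledge of the pathway. Earlier results of these data were known at the time, so shares set beside those of all genes are descriptions only. All 32 were found among the 25084 genes of the table. The cells were LAN5, an established human neuroblastoma line with many extra copies of MYCN, and all 9 libraries came from this 1 line. Every group received small interfering RNA (siRNA, a short RNA that directs the breakdown of a matching transcript) by Nucleofector electroporation, and RNA was taken after 72 h in growth medium with fetal calf serum, antibiotics and L-glutamine. The 3 groups of 3 libraries were the control siRNA siCTR, an siRNA against MYCN (labelled siMYCN_2, here siMYCN) and an siRNA against HAND2 (labelled siHAND2_3, here siHAND2). The labels name a single siRNA for each target, so an effect of the sequence and an effect of the target cannot be told apart. They do not say whether replicates came from separate cultures, so p-values measure the spread between these libraries, which may be technical.

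The p53 protein is a transcription factor that is held low by MDM2, a ubiquitin ligase, and by the related MDM4. When DNA damage or ribosome stress frees it from MDM2, it turns on genes that stop the cell cycle, repair DNA, adjust metabolism or start apoptosis. It also turns on its own inhibitors, among them MDM2 and the phosphatase PPM1D, which closes a feedback loop. In neuroblastoma the pathway is known for its ties to MYCN, whose protein can raise MDM2 transcription. Many of the same target genes are also driven by other factors, such as FOXO proteins, so their transcripts do not read p53 activity alone.

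The values were CPM, read counts scaled to a common library total, and 1 CPM stood for 21.1 to 32.7 reads in the 9 libraries. The targeted genes were lower in the libraries labelled with their siRNA. MYCN was at 1848, 1894 and 1786 CPM with siCTR, at 1338, 1245 and 1285 with siMYCN and at 898, 969 and 877 with siHAND2. HAND2 was at 489 to 516 CPM with siCTR, 557 to 588 with siMYCN and 267 to 280.4 with siHAND2. The siHAND2 libraries thus had the lowest level of both transcripts. In any siHAND2 difference, a part of lower HAND2 and a part of lower MYCN cannot be told apart. All 10 markers of noradrenergic neuroblastoma on the list used here were detected, with sums of 2589 to 2719 CPM in the controls, 3207 to 3268 for siMYCN and 2721 to 2855 for siHAND2. In siMYCN 8 of the 10 rose, and in siHAND2 3 rose and 4 fell, among them DBH, an enzyme of noradrenaline synthesis (mean 263 to 130.1 CPM, -1.01). For this list and the stromal list below, the all-gene shares called higher and lower were 24.5% and 11.4% in siMYCN. In siHAND2 they were 18.1% and 11.8%. The 8 stromal markers summed to 463 to 481 CPM with siCTR, 551 to 561 with siMYCN and 803 to 899 with siHAND2. Of the 8, 7 were at 1 CPM or more in at least 3 libraries, and COL1A1 was below 1 CPM in all 9. In siMYCN 6 of these 7 rose, and in siHAND2 5 rose and THY1 fell (-0.20). PDGFRA (mean 121 to 341 CPM) and PDGFRB (89.8 to 179 CPM) made up most of the higher siHAND2 sum. DCN measured 0.374 to 0.522 CPM with siCTR, 1.11 to 1.61 with siMYCN and 10.2 to 11.7 with siHAND2. LUM measured 8.99 to 9.25 CPM with siCTR, 16.5 to 17.6 with siMYCN and 49.8 to 58.2 with siHAND2. COL3A1 measured 1.14 to 1.62, 3.95 to 4.45 and 3.54 to 4.08 CPM in the same order. The part of these markers in the changes of the p53 pathway genes was not tested. No endothelial or immune marker in the table reached 1 CPM in 3 libraries, and of the epithelial markers only EPCAM did, at group means of 3.09 to 3.67 CPM with no call. In bulk RNA such as this, fewer cells of a type and less RNA per cell cannot be told apart.

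Of the 32 genes, 29 reached 1 CPM in at least 3 libraries and were tested. TP73, a relative of p53, GADD45B, a stress-induced growth arrest gene, and SPATA18, a p53 target that acts on mitochondria, did not. TP73 stood at 0.411, 0.263 and 0.612 CPM with siCTR, at 0.812, 0.709 and 0.543 with siMYCN and at 0.699, 0.649 and 0.677 with siHAND2. The siMYCN libraries overlapped siCTR and the siHAND2 libraries lay above it, but TP73 shares bases with TP73-AS1 on the other strand (mean 28.4 CPM), and the use of strand in counting is not given in the sources used here. GADD45B measured 0.0612 to 0.190 CPM with siCTR, 0.161 to 0.240 with siMYCN and 0.106 to 0.132 with siHAND2. SPATA18 did not exceed 0.239 CPM in any library and was listed at the constant 0.0001 in 2 siCTR libraries and 1 siMYCN library.

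Per kilobase of the canonical transcript, the siCTR levels of the members ran over a wide range. PLK2 was highest at 59.4 ± 0.230 CPM per kb, followed by CCNG1 at 58.4 ± 0.669 and TNFRSF10B at 54.6 ± 0.391 (SD, n = 3 libraries). AEN, DDB2, MDM2, PPM1D, CDKN1A and GADD45A formed the next group, between 26.3 and 21.1 CPM per kb. At the other end of the tested genes were TIGAR (2.35), PLK3 (1.89) and SESN2 (1.74 CPM per kb). CDKN1A and MDM2, the best known p53 targets, were thus well expressed in the control cells. A length was found for all members but FAS.

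Against siCTR, 13 of the 29 tested members passed an adjusted p of 0.05 with siMYCN (44.8%, limma with Benjamini-Hochberg adjustment over all 14495 genes tested), 7 higher and 6 lower. Of all genes tested, 35.9% passed in that comparison. In siHAND2, 11 members passed (37.9%), 9 higher and 2 lower, beside 29.9% of all genes. In siMYCN, 9 members had all 3 libraries above those of siCTR and 7 had all 3 below (16 in all), beside 33.4%, 16.1% and 49.5% of all genes. In siHAND2 the 15 members without overlap were 11 above and 4 below, beside 42.4%, 25.8% and 16.6% of all genes for the total and each direction. By direction, the 7 higher and 6 lower in siMYCN stand beside 24.5% and 11.4% of all genes, and the 9 and 2 in siHAND2 beside 18.1% and 11.8%. The list as a whole was not tested, and the results below concern single genes. The median difference of the members on the log2(CPM + 1) scale was -0.015 with siMYCN, where that of all genes was 0.06, and 0.07 with siHAND2, where that of all genes was 0.04. The 2 comparisons share their siCTR libraries. Set side by side, 6 members were higher in both, 1 moved in opposite directions, 6 were lower in siMYCN with no call in siHAND2, 3 were higher and 1 was lower in siHAND2 with no call in siMYCN, and 12 had no call against siCTR. With other scalings of the libraries (median-ratio or quantile), the siMYCN split was 5 higher and 8 lower. Over all genes the split was then 2443 higher and 2333 lower (median-ratio) or 2333 and 2395 (quantile). In the main fit it was 3556 and 1653, so the shift toward lower was not particular to the members.

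**Figure D1:**
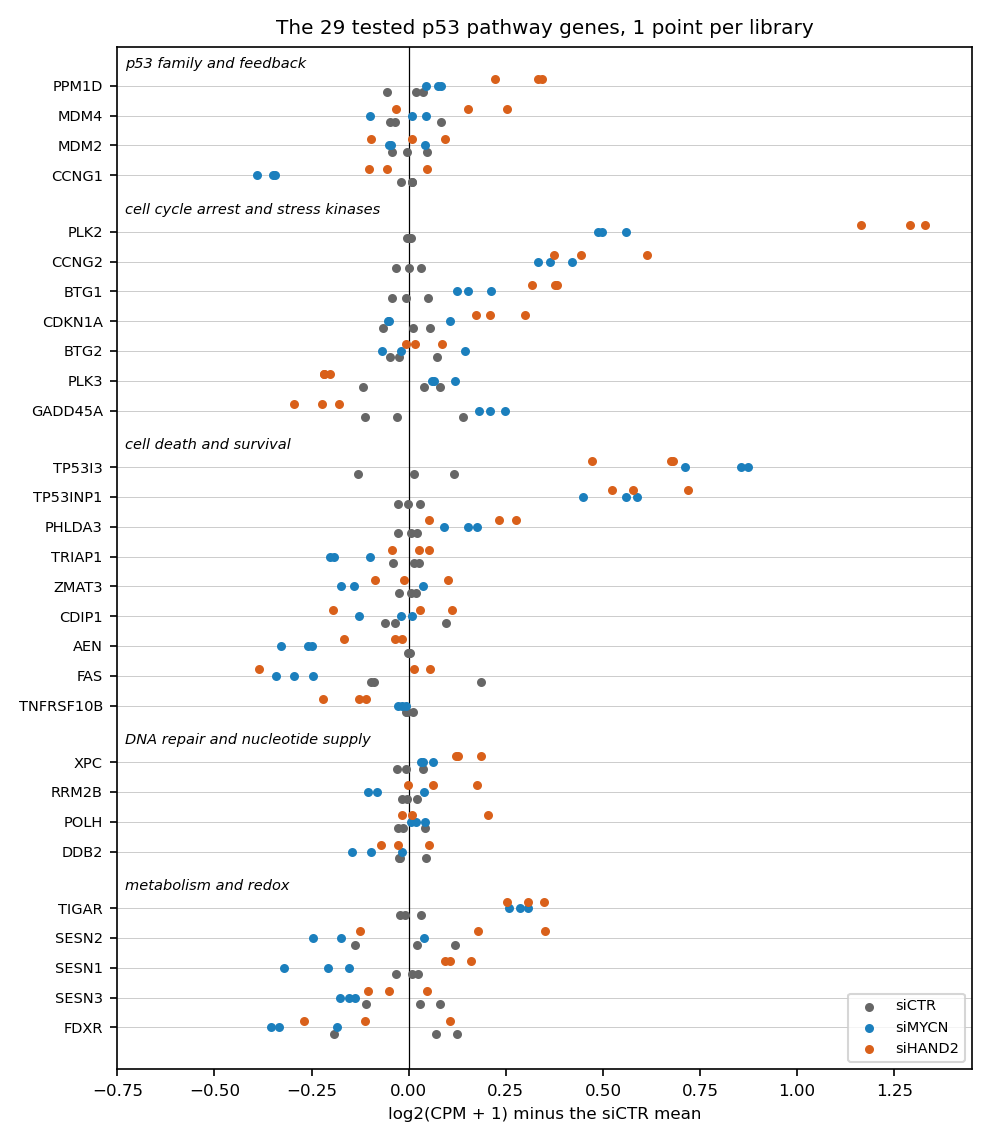
Difference of log2(CPM + 1) from the siCTR mean (x axis) for each of the 29 tested members (y axis, grouped by role), with 1 point per library of siCTR (grey), siMYCN (blue) and siHAND2 (orange). PLK2, TP53I3, TP53INP1 and CCNG2 lie right of all siCTR points in both knockdowns, while CCNG1 and AEN lie clearly left in siMYCN.

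Among the genes of cell cycle arrest and stress kinases, 4 of 7 tested members rose in each knockdown, and 1 fell in siHAND2. Of all genes, 24.5% were called higher and 11.4% lower in siMYCN, and 18.1% and 11.8% in siHAND2. PLK2 (chromosome 5, from 58453982 to 58460139, minus strand; positions are GRCh38), a polo-like kinase induced by p53 and by neuronal activity, changed most. It measured 166, 165 and 166 CPM with siCTR, 232, 234 and 244 with siMYCN and 406, 372 and 417 with siHAND2. The 3 groups did not overlap, and the order siCTR, siMYCN, siHAND2 held for every library. The difference from siCTR was 0.51 with siMYCN (log2 scale, SE 0.04, limma adjusted p = 3.90e-07), a 1.43-fold rise of the mean CPM. In siHAND2 it was 1.26 (SE 0.04, adjusted p = 9.15e-12), a 2.41-fold rise, larger in size than that of 99.4% of all tested genes. Its relative PLK3, also a stress-induced kinase, was low at 3.99 to 4.72 CPM with siCTR and 3.65 to 3.70 with siHAND2, and neither difference from siCTR passed (0.08 with siMYCN and -0.21 with siHAND2, limma adjusted p = 0.520 and 0.0890). The siHAND2 difference of PLK3 passed with no intensity trend (adjusted p = 0.0225) and after quantile normalization (-0.29, adjusted p = 0.0198).

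CCNG2 (chromosome 4, from 77157207 to 77433388), an unusual cyclin that slows the cell cycle and is known as a FOXO target, measured 31.8, 32.5 and 31.0 CPM with siCTR. It stood at 40.3, 41.1 and 42.8 CPM in siMYCN and at 41.5, 43.6 and 49.1 with siHAND2. Both knockdowns lay above siCTR and overlapped each other. The rises were 0.37 (SE 0.06, limma adjusted p = 0.000164) and 0.48 (SE 0.06, adjusted p = 1.48e-05). CCNG1, the cyclin of the same family that p53 induces directly, went the other way in siMYCN and is described with the feedback genes.

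BTG1, an antiproliferative cofactor of transcription and mRNA decay, measured 41.6, 44.4 and 42.7 CPM with siCTR, 46.9, 49.9 and 47.8 with siMYCN and 53.7, 56.2 and 56.0 with siHAND2. The groups formed 3 separate steps. The rise was 0.36 with siHAND2 (SE 0.05, limma adjusted p = 3.24e-05) and 0.16 with siMYCN (adjusted p = 0.0147). The siMYCN call was not kept without siCTR replicate 1 or siMYCN replicate 2 (0.14 in each), nor with either other scaling (0.11 in each). BTG2, the family member usually cited as the p53 target, measured 8.98 to 9.87 CPM with siCTR and 8.86 to 10.4 over both knockdowns. Its differences were 0.019 with siMYCN (95% interval -0.15 to 0.19) and 0.03 with siHAND2 (-0.14 to 0.20), so a change of more than about 0.2 in either direction lay outside the intervals.

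CDKN1A (chromosome 6, from 36676460 to 36687337), which encodes the CDK inhibitor p21 through which p53 arrests the cell cycle, measured 44.8, 47.3 and 48.8 CPM with siCTR and 45.3, 45.3 and 50.6 with siMYCN. In siHAND2 it stood at 58.0, 54.4 and 53.1 CPM, above all 6 other libraries. The siHAND2 rise was 0.23 (SE 0.06, limma adjusted p = 0.00617), 1.17-fold in mean CPM, and it held in each of the 18 other fits. The siMYCN difference was 0.0012 with a 95% interval of -0.12 to 0.12.

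GADD45A, which links DNA damage to growth arrest and repair, was the 1 member called in opposite directions. It measured 27.9, 31.5 and 26.3 CPM with siCTR, 32.4, 34.1 and 33.1 with siMYCN and 25.1, 24.3 and 23.0 with siHAND2. The siMYCN libraries were all above and the siHAND2 libraries all below siCTR, whose 3 values were the most spread. The differences were 0.21 with siMYCN (SE 0.07, limma adjusted p = 0.0178) and -0.23 with siHAND2 (SE 0.07, adjusted p = 0.0127). The siMYCN call did not survive leaving out siMYCN replicate 2 (0.19) or, among the controls, replicate 1 (0.20) or replicate 3 (0.16), nor did it hold with either other scaling (0.16 and 0.17). The siHAND2 call was not kept without siCTR replicate 2 (-0.16).

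**Figure D2:**
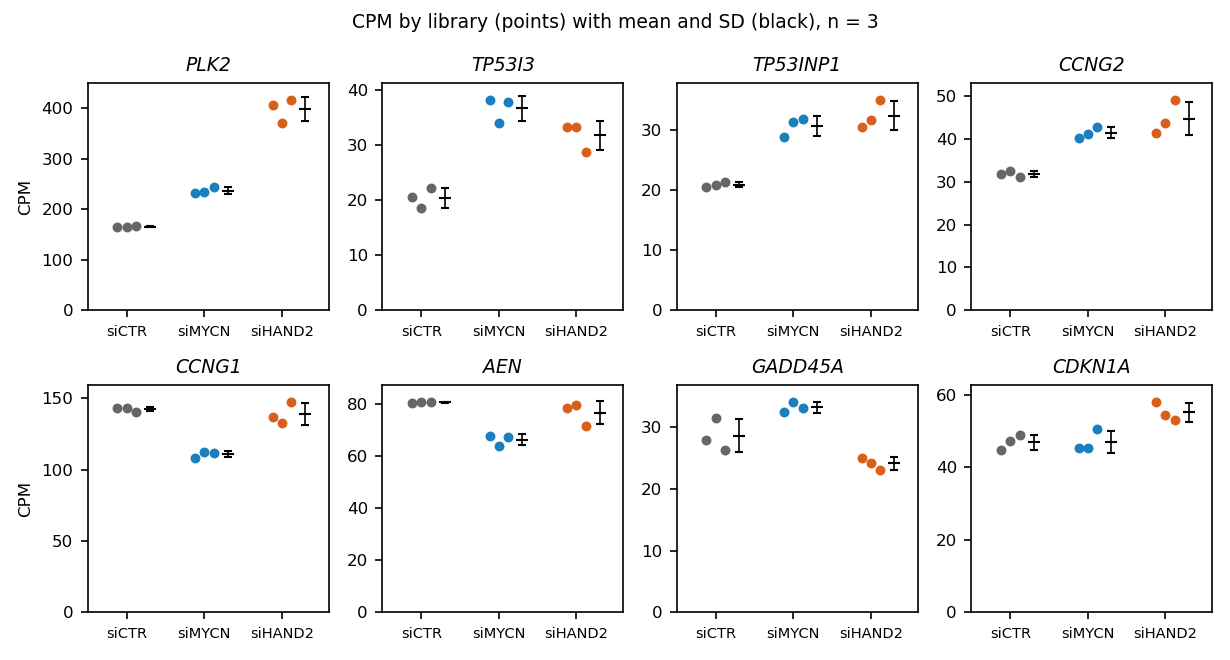
CPM (y axis, from 0) of 8 members in the 3 groups (x axis), with 1 coloured point per library and the mean ± SD in black (n = 3 libraries). PLK2 rises in steps to 372 to 417 CPM in siHAND2, TP53I3 is highest in siMYCN, CCNG1 and AEN fall in siMYCN, and CDKN1A rises in siHAND2.

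Of the 9 tested genes of cell death and survival, 2 rose and 2 fell in siMYCN, and 2 rose and 1 fell in siHAND2, beside all-gene shares of 24.5% and 11.4%, and of 18.1% and 11.8%. TP53I3 (chromosome 2, from 24077433 to 24085861, minus strand), an oxidoreductase linked to oxidative stress in p53-driven death, had the largest siMYCN change of all members. It measured 20.6, 18.5 and 22.2 CPM with siCTR, 38.1, 34.0 and 37.7 with siMYCN and 33.2, 33.1 and 28.7 with siHAND2. Each siMYCN library was above each siHAND2 library, and all 6 were above siCTR. The rise was 0.81 with siMYCN (SE 0.07, limma adjusted p = 6.48e-07), 1.79-fold in mean CPM, and 0.61 with siHAND2 (adjusted p = 1.08e-05). TP53I3 overlaps FAM228B on the other strand, which stood at 2.69 CPM with siCTR, 3.65 with siMYCN and 3.00 with siHAND2 (means).

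TP53INP1 (chromosome 8, from 94925972 to 94949378, minus strand), a stress-induced nuclear protein that promotes p53 phosphorylation and autophagy, measured 20.4, 20.8 and 21.3 CPM with siCTR. It stood at 28.8, 31.2 and 31.8 CPM in siMYCN and at 30.4, 31.6 and 34.9 with siHAND2, so both knockdowns were above siCTR and overlapped each other. The rises were 0.53 (SE 0.06, limma adjusted p = 7.21e-06) and 0.61 (SE 0.06, adjusted p = 1.50e-06). The gene lies within NDUFAF6 on the other strand, whose group means lay between 13.9 and 14.6 CPM.

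AEN (chromosome 15, from 88621337 to 88632281), a nuclease that p53 induces to degrade DNA in apoptosis, measured 80.5, 80.7 and 80.9 CPM with siCTR and fell to 67.8, 64.1 and 67.3 with siMYCN. In siHAND2 it stood at 78.7, 79.8 and 71.8 CPM. The siMYCN fall was -0.28 (SE 0.05, limma adjusted p = 0.0003), leaving 82.3% of the control mean, and the siHAND2 difference was -0.07 (adjusted p = 0.275). TRIAP1, a small mitochondrial protein that protects from apoptosis, also fell in siMYCN, from 22.2 to 23.3 CPM to 19.8 to 21.3 (-0.17, adjusted p = 0.0365). That call did not survive leaving out any siCTR replicate, or siMYCN replicate 1 or 2 (-0.19 to -0.15).

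The list holds a pair of receptors of the extrinsic death pathway. TNFRSF10B (chromosome 8, from 23020133 to 23069031), a receptor for the death ligand TRAIL, measured 217 to 220.0 CPM with siCTR, 214 to 217 with siMYCN and 187 to 202 with siHAND2. It fell by 0.15 on the log2 scale in siHAND2 (SE 0.04, limma adjusted p = 0.00804), leaving 89.9% of the control mean, with no overlap between the groups. FAS, the receptor for the FAS ligand, was at 2.18 to 2.88 CPM with siCTR, 1.69 to 1.88 with siMYCN and 1.61 to 2.54 with siHAND2. Its siMYCN libraries all lay below siCTR, but the difference of -0.29 had a limma adjusted p of 0.0931.

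Among the other members of this role, PHLDA3, which blocks AKT at the membrane, measured 14.2 to 14.7 CPM with siCTR, 15.4 to 16.4 with siMYCN and 15.0 to 17.7 with siHAND2. Both knockdowns lay above siCTR, with differences of 0.14 (limma adjusted p = 0.131) and 0.19 (adjusted p = 0.0534). The siHAND2 difference passed without siHAND2 replicate 3 (0.25, adjusted p = 0.00839) and with a filter of 5 CPM (adjusted p = 0.0449). ZMAT3, an RNA-binding regulator of splicing and decay, and CDIP1, a death effector of the endosome, had differences between -0.09 and 0.001 in both comparisons, none past the threshold. ZMAT3 passed in siMYCN only without siMYCN replicate 3 (-0.16, adjusted p = 0.0404) and after median-ratio or quantile scaling (-0.15 and -0.14).

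Of the 4 tested feedback genes, 1 fell in siMYCN (all genes 11.4%) and 1 rose in siHAND2 (all genes 18.1%). MDM2 (chromosome 12, from 68808177 to 68850686) measured 181, 176 and 188 CPM with siCTR, 176, 175 and 187 with siMYCN and 169.5, 183 and 194 with siHAND2, and the 3 groups overlapped. The 95% interval of its difference ran from -0.12 to 0.09 with siMYCN and from -0.10 to 0.11 with siHAND2. A difference of more than about 0.12 thus lay outside the intervals of this fit, which reflect the spread between these libraries. Over the other fits the estimate lay between -0.076 and 0.0058 with siMYCN and between -0.044 and 0.052 with siHAND2. MDM4 measured 77.1 to 84.5 CPM with siCTR, 74.3 to 82.2 with siMYCN and 77.9 to 95.1 with siHAND2, with differences of -0.015 and 0.12 (limma adjusted p = 0.883 and 0.164). Without siHAND2 replicate 1, the lowest of its group, the siHAND2 difference of MDM4 was 0.20 and passed (adjusted p = 0.0173).

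PPM1D (chromosome 17, from 60600183 to 60666280), the phosphatase that switches off p53 and its upstream kinases, measured 113.5, 106 and 112 CPM with siCTR and 114, 116 and 117 with siMYCN. It stood at 140.5, 129 and 139.6 CPM in siHAND2, above all other libraries. The siHAND2 rise was 0.30 (SE 0.04, limma adjusted p = 9.31e-05) and the siMYCN difference 0.07 (adjusted p = 0.260). CCNG1 (chromosome 5, from 163437569 to 163446151), a cyclin that recruits a phosphatase to activate MDM2, measured 144, 144 and 141 CPM with siCTR, 109, 112 and 112 with siMYCN and 137, 133 and 147 with siHAND2. It was lower in siMYCN than in all other libraries, by -0.36 (SE 0.04, limma adjusted p = 1.11e-05), leaving 77.7% of the control mean. The siHAND2 difference was -0.04 (95% interval -0.13 to 0.06).

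In metabolism and redox, 1 of 5 tested members rose and 3 fell in siMYCN (all genes 24.5% and 11.4%), and 1 rose in siHAND2 (all genes 18.1%). The falls of SESN3 and FDXR were not kept in several other fits. TIGAR (chromosome 12, from 4307763 to 4360028), a phosphatase that lowers glycolytic flux, measured 19.0, 19.7 and 19.2 CPM with siCTR, 23.8, 24.1 and 23.3 with siMYCN and 23.2, 24.1 and 24.9 with siHAND2. The 2 knockdowns overlapped each other above siCTR, with rises of 0.28 (SE 0.06, limma adjusted p = 0.000887) and 0.30 (SE 0.06, adjusted p = 0.000632). TIGAR shares its whole span with AC008012.1, a low gene on the same strand that went from 5.14 CPM with siCTR to 3.31 with siMYCN and 4.10 with siHAND2 (means), so reads of the pair may be divided by the counting.

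The sestrins are stress-induced inhibitors of mTORC1 signalling. SESN1 measured 34.4, 33.0 and 34.0 CPM with siCTR, 26.9, 29.2 and 30.3 with siMYCN and 36.5, 36.2 and 37.9 with siHAND2. It fell in siMYCN by 0.23 (SE 0.06, limma adjusted p = 0.00428), while the siHAND2 libraries lay above siCTR without passing (0.12, adjusted p = 0.114). SESN3 fell in siMYCN from 74.3 to 85.1 CPM to 71.0 to 72.9 (-0.16, adjusted p = 0.0331), a call not kept without siCTR replicate 1 or 2 or any siMYCN replicate (-0.17 to -0.12). SESN2, the member most tied to ATF4, had 4.91 to 7.93 CPM over all libraries and no call. FDXR, a mitochondrial electron carrier enzyme, stood at 16.8 to 21.1 CPM with siCTR and 14.9 to 16.9 with siMYCN. Its ranges met, and its call (-0.29, adjusted p = 0.0272) was not kept without siCTR replicate 2 or 3 or siMYCN replicate 2 or 3 (-0.27 to -0.23). Neither call of the pair passed with no filter on low values (SESN3 adjusted p = 0.0524, FDXR 0.0550) or with no intensity trend (0.0813 and 0.0682).

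Of the 4 genes of DNA repair and nucleotide supply, none passed in siMYCN (limma, lowest unadjusted p = 0.118) and 1 rose in siHAND2 (all genes 18.1%). XPC, which senses damage for nucleotide excision repair, measured 60.1, 61.2 and 63.0 CPM with siCTR, 62.8 to 64.2 with siMYCN and 70.1, 67.0 and 67.2 with siHAND2. Its siHAND2 rise was 0.15 (SE 0.04, limma adjusted p = 0.0189), not kept without siCTR replicate 1 (0.13), siCTR replicate 2 (0.14) or siHAND2 replicate 1 (0.12) and with median-ratio scaling (0.11). DDB2, a damage sensor, measured 42.3 to 46.1 CPM with siCTR and siHAND2 and 40.1 to 43.9 with siMYCN. POLH, a polymerase that copies past ultraviolet lesions, measured 46.0 to 54.1 CPM over all libraries, and RRM2B, a subunit of the p53-induced ribonucleotide reductase, 42.5 to 51.8. None of these 3 passed against siCTR, apart from DDB2 with siMYCN after median-ratio or quantile scaling (-0.14 in each). POLH overlaps GTPBP2 on the other strand, which stood at 30.4 CPM with siCTR, 36.8 with siMYCN and 33.9 with siHAND2 (means).

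The promoters of the members were examined for letters that the study's factors are known to read. MYC family proteins bind CACGTG, HAND2 with its partners binds CANNTG and often CATCTG, and p53 binds a pair of half-sites named the p53 response element. RefSeq windows of 250 bases before to 50 after each annotated start (GRCh38.p14) were found for 27 of the 32 members. PLK2, TP53I3 and CCNG2 are shown because they had the largest rises in both knockdowns among members with a window. The lines give the 250 bases before the RefSeq start, 5′ to 3′ on the strand of the gene, at chr5:58460087-58460336 (minus strand), chr2:24084835-24085084 (minus strand) and chr4:77156957-77157206 (plus strand). Only 1 annotated start is shown per gene. The TP53I3 stretch lies inside the span listed for that gene (24077433 to 24085861), so its start is not the outermost one. Capitals mark a p53 half-site in PLK2 and CACGTG in CCNG2.
PLK2: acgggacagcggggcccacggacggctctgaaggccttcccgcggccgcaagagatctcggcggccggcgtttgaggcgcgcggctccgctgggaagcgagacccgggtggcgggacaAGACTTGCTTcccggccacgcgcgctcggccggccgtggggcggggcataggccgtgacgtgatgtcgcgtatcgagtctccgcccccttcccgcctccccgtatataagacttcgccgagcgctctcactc
TP53I3: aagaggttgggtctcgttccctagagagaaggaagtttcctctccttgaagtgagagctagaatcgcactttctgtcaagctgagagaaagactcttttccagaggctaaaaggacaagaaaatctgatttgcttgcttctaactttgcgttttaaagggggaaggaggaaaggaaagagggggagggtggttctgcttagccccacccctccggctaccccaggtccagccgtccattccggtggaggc
CCNG2: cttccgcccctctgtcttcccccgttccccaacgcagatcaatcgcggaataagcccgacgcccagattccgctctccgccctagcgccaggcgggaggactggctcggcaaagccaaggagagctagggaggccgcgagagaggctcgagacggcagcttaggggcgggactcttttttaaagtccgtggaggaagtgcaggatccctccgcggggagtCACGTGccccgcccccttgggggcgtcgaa

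Counting both strands, CACGTG was present in 5 of the 27 members (18.5%), namely TP73, CCNG2, AEN, GADD45B and CDIP1, beside 8.8% of the 27305 genes in the RefSeq table. The broader CANNTG, of which CACGTG and CATCTG are cases, was present in 18 (66.7%, beside 73.1%), and CATCTG in 3 (11.1%, beside 17.5%). A p53 half-site was found in 6 (22.2%, beside 8.1%), in FAS, SESN1, FDXR, AEN, DDB2 and PLK2. Some genes had several windows, 41 for the 27 members and 35116 for the 27305 genes. By window, CACGTG was in 5 of 41 (beside 7.3%) and the half-site in 6 of 41 (beside 6.6%). The shares were not tested, and the members were chosen for known ties to p53. Only DDB2 held a full p53 response element with a spacer of up to 13 bases, beside 0.037% of genes. These members did not share a direction: of the genes with CACGTG that were tested, CCNG2 rose in both knockdowns, AEN fell in siMYCN and CDIP1 had no call. A match describes letters in this window and not binding. DDB2, the member with the full element, and AEN, the member with both CACGTG and a half-site, are shown as short stretches with the motifs in capitals and 4 flanking bases on each side in lower case. On the plus strand, the stretches span chr11:47214975-47215003 for DDB2, chr15:88621302-88621319 around the AEN half-site and chr15:88621344-88621357 around the AEN CACGTG.
DDB2: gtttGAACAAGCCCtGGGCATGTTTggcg
AEN half-site: agccGGGCTTGCCCgggc
AEN CACGTG: acgcCACGTGcaga

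The direct comparison of siHAND2 with siMYCN tests the difference between the knockdowns and does not use the level of the control libraries, which enter only the estimate of spread. MYCN itself was lower in the siHAND2 libraries than in the siMYCN libraries, so the comparison does not separate HAND2 from MYCN level. The comparison gave 11 calls among the 29 members (37.9%), 8 higher and 3 lower in siHAND2, beside 26.9% of all genes (11.4% higher and 15.5% lower). The libraries of the 2 knockdowns did not overlap for 14 members, 10 higher and 4 lower in siHAND2, beside 38.7%, 17.1% and 21.6% of all genes. After quantile normalization the split was 10 higher and 2 lower, beside 2076 higher and 1924 lower over all genes. In the main fit all genes had 1650 higher and 2242 lower. In all, 25 of the 29 differences were above 0 (86.2%), beside 48.6% over all tested genes, and the median was 0.11, beside -0.0063. Leaving out 1 library at a time kept this median between 0.08 and 0.13. The other scalings gave 0.12 and 0.14, beside 0.0098 and 0.012 over all genes. Most of these 25 differences did not pass singly, and the list as a whole was not tested. Of 58 tested p53 targets that are not members, 30 were above 0 in the same comparison (51.7%), with a median of 0.0080. The 8 members called higher in siHAND2 included 4 called lower in siMYCN with no call in siHAND2, against siCTR.

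**Figure D3:**
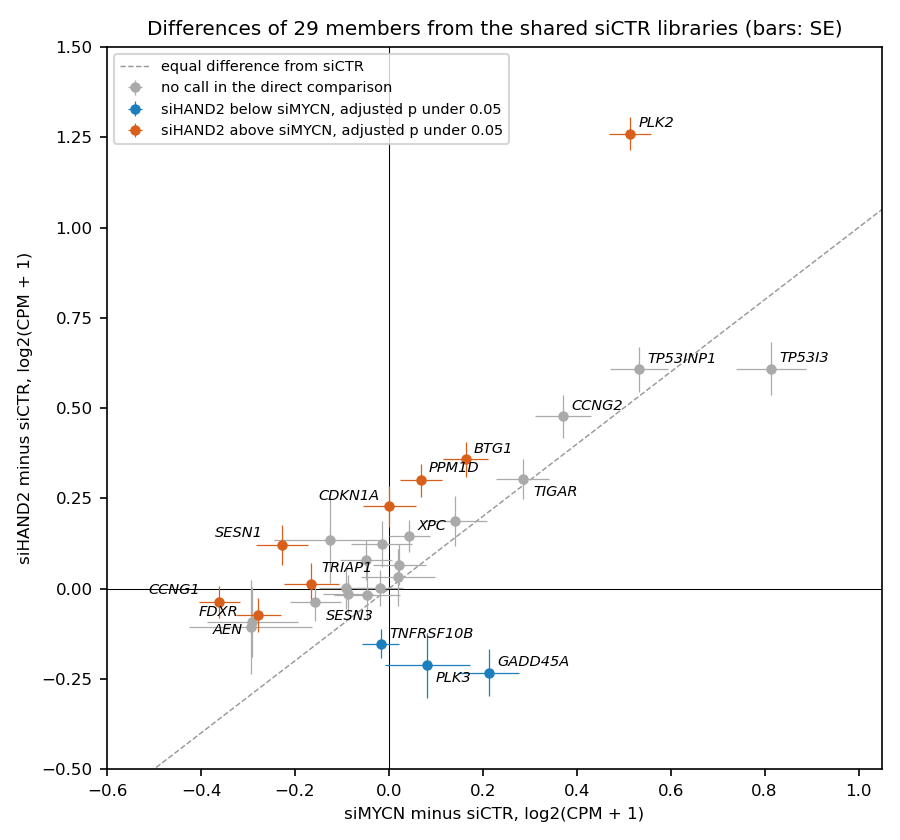
Difference from siCTR in siMYCN (x axis) and in siHAND2 (y axis) on the log2(CPM + 1) scale for the 29 tested members, with bars of 1 SE; both axes use the same siCTR libraries. Orange and blue mark the 8 members higher and 3 lower in siHAND2 than in siMYCN, and most points lie above the dashed line of equal difference.

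The largest of these differences was that of PLK2, which was 0.75 higher in siHAND2 (SE 0.04, limma adjusted p = 1.75e-09). SESN1 was higher by 0.35 (adjusted p = 0.000159) and CCNG1 by 0.32 (adjusted p = 3.31e-05), and AEN by 0.21 (adjusted p = 0.00428). These 3 fell in siMYCN with no call in siHAND2. CDKN1A and PPM1D, which rose in siHAND2, were higher than in siMYCN by 0.23 each (adjusted p = 0.00689 and 0.000945), and BTG1 by 0.19 (adjusted p = 0.00642). GADD45A was lower in siHAND2 by 0.45 (-0.45, SE 0.07, adjusted p = 6.92e-05). All 8 of these calls held in every other fit.

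The remaining 3 direct calls were less stable. TRIAP1 was 0.18 higher in siHAND2 (limma adjusted p = 0.0330), a call not kept without siMYCN replicate 1 or 2 or siHAND2 replicate 1 or 3 (0.16 to 0.17) and when only both groups were fitted. TNFRSF10B differed by -0.14 (adjusted p = 0.0180), not kept without siMYCN replicate 3 (-0.13) or siHAND2 replicate 2 (-0.10), after quantile normalization (-0.086) and with no intensity trend. PLK3 differed by -0.29 (adjusted p = 0.0237), not kept without siMYCN replicate 1 (-0.28), siMYCN replicate 3 (-0.30) or siHAND2 replicate 2 (-0.30) and with no filter on low values. Of the 18 members without a direct call, 7 passed in some other fit, and 4 of these, beside TP53I3, did so when 1 library was left out: MDM4 (0.22, siHAND2 replicate 1), ZMAT3 (0.16, siMYCN replicate 3), FDXR (0.29) and SESN2 (0.39, both siHAND2 replicate 3). Of the 6 members higher in both knockdowns, TIGAR (0.02), TP53INP1 (0.08) and CCNG2 (0.11) did not differ between them past the threshold, with 95% intervals of -0.10 to 0.14, -0.06 to 0.21 and -0.02 to 0.23. TP53I3 was lower in all 3 siHAND2 libraries than in siMYCN, by -0.20 (adjusted p = 0.0520), and passed under 8 of the 18 other fits, among them without siCTR replicate 2 or 3 (-0.20), siMYCN replicate 2 (-0.25) or siHAND2 replicate 1 (-0.24).

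Members of 1 gene family often had different calls, though differences between paralogs were not tested. CCNG2 rose and CCNG1 fell in siMYCN, PLK2 rose in siHAND2 where PLK3 lay below siCTR, and BTG1 rose in siHAND2 with BTG2 within 0.20 of no change. SESN1 and SESN3 fell in siMYCN while SESN2 had no call, though its difference of -0.13 (SE 0.12) lay in the same direction.

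Other genes of the pathway were taken from lists drawn up from knowledge of the pathway, also with earlier results of these data known. Of 58 tested p53 targets that are not members, 18 passed in siMYCN (31.0%, 9 higher and 9 lower) and 14 with siHAND2 (24.1%, 9 higher and 5 lower), beside the 35.9% and 29.9% of all genes. Their median differences were 0.02 and 0.06. In siMYCN the largest rises among them were those of the integrin ITGA3 (0.53), the peptidase PGPEP1 (0.50) and SERTAD1 (0.37), and the largest falls those of CMBL (-0.46), the KIT ligand KITLG (-0.41) and the kinase DYRK3 (-0.38). In siHAND2 the ubiquitin ligase TRIM32 (0.41), ZNF561 (0.26) and the apoptosome component APAF1 (0.24) rose most, and ARHGEF3 (-0.57), STEAP3 (-0.46) and TM7SF3 (-0.32) fell most.

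Of 28 tested regulators and cofactors of p53, 17 passed in siMYCN (60.7%, 12 higher and 5 lower), beside 35.9% of all genes. In siHAND2, 12 passed (42.9%, 7 higher and 5 lower), beside 29.9%. The largest siMYCN falls were in NPM1, RPL5 and RPL11, a nucleolar protein and a pair of ribosomal proteins that can bind MDM2 or ARF and thereby spare p53. NPM1 went from a mean of 1743 CPM with siCTR to 1141 with siMYCN and 1447 with siHAND2 (-0.61 and -0.27, limma adjusted p = 1.11e-07 and 0.000364). RPL5 went from 1284 CPM to 848 and 1054 (-0.60 and -0.28), and RPL11 from 544 to 401 with siMYCN (-0.44). The rises in siMYCN were led by PPP1R13B (0.51), which steers p53 toward death genes, ING2 (0.38) and the acetyltransferase CREBBP (0.27). In siHAND2 they were led by CREBBP (0.32), ING1 (0.27) and the acetyltransferase EP300 (0.24), and SMYD2, a methyltransferase of p53, fell (-0.19).

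The last list holds cell cycle genes that p21 lowers through the DREAM complex and E2F factors. Of 30 tested, 7 passed in siMYCN (23.3%, 3 higher and 4 lower) and 4 with siHAND2 (13.3%, 2 higher and 2 lower), beside 35.9% and 29.9% of all genes. The medians were -0.012 and 0.0041, beside 0.06 and 0.04 over all genes. The mitotic kinase genes AURKB (-0.21 and -0.15) and PLK1 (-0.16 and -0.24) fell in both knockdowns, as did the survivin gene BIRC5 with siMYCN (-0.17). RRM2, a subunit of ribonucleotide reductase, rose in both (0.12 and 0.26), E2F1 (0.18) and MYBL2 (0.14) rose in siMYCN, and the replication clamp PCNA rose in siHAND2 (0.16). In siHAND2, where CDKN1A rose, the 30 differences of this list lay between -0.24 and 0.26.

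**Figure D4:**
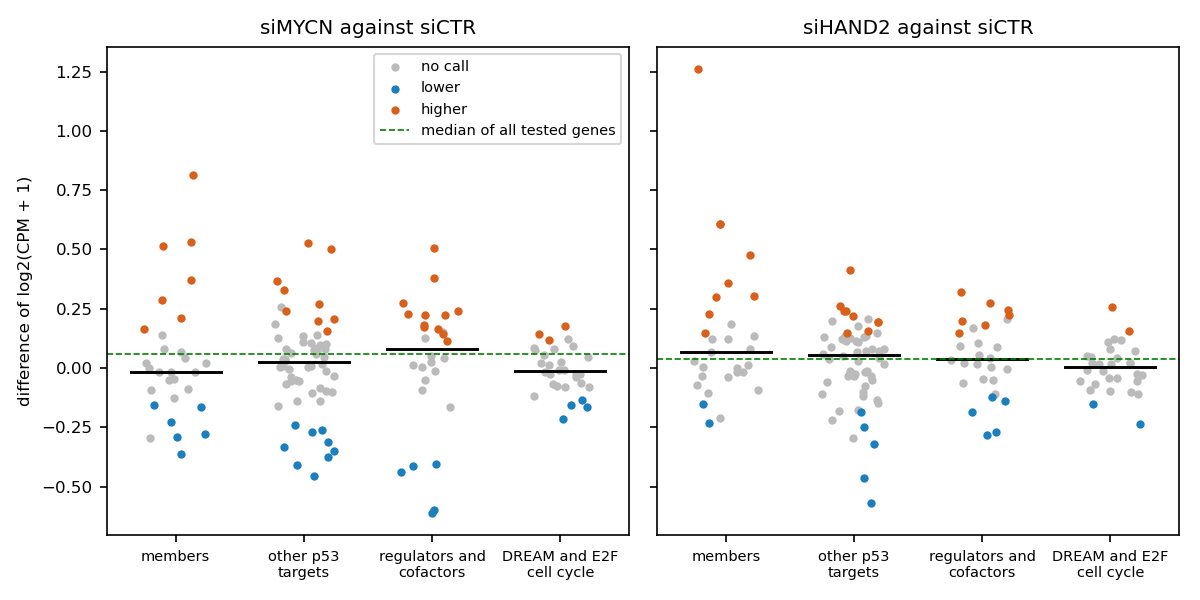
Difference of log2(CPM + 1) from siCTR (y axis) for each tested gene of 4 lists (x axis) in siMYCN (left) and siHAND2 (right), coloured by call at an adjusted p of 0.05. Black bars are list medians and the dashed green line is the median of all tested genes (0.06 and 0.04); the DREAM and E2F genes lie between -0.24 and 0.26 with siHAND2.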

How the data were processed

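RNA from 9 libraries of LAN5 cells (3 each of siCTR, siMYCN and siHAND2) was analysed from 1 table deposited by the authors, whose values are CPM with a constant of 0.0001 in each. STAR 2.5.1 and Partek are named in the submitters' processing notes, as are the builds hg19 and GRCh37; the counting rule, strand use and annotation are not given in the sources used here. The positions in the table matched GRCh38 instead (91.4% of 18215 starts within 5000 bases, against 5.6% for a GRCh37 annotation), so they are given as GRCh38, with the end taken as 1 base before the listed stop. Transcript lengths came from the GRCh37 annotation by symbol. Depth was read from the step between low CPM values (21.1 to 32.7 M reads); only 79.3% to 80.7% of values up to 20 steps were whole multiples within 0.02, under the 95% needed for a count test.

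Differences were fitted on log2(CPM + 1), for the 14495 genes that reached 1 CPM in 3 or more libraries, with limma 3.58.1 in R 4.3.3 (1 mean per group, all 9 libraries, intensity trend, two-sided, Benjamini-Hochberg over all genes, threshold 0.05). This scale understates changes of low genes. The script was tested on simulated data. The members and lists were chosen with earlier results of these data known. All 32 members are accounted for; from each other list, up to 3 rises and 3 falls per knockdown are named, among called genes averaging 1 CPM or more and without overlap with siCTR. As 9 alternatives, the fit was repeated with a pseudocount of 0.1 or 5, no filter, a filter of 5 CPM, median-ratio and quantile scaling, fits of 2 groups, no intensity trend and a replicate block; 9 more fits left out 1 library each.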

Additional observations from a re-analysis of the deposited data

How the results depend on the processing

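Of the 13, 11 and 11 member calls in siMYCN, in siHAND2 and between the knockdowns, 8, 9 and 8 held in all 18 other fits; the cause of the lost calls was not tested. With no filter on low values, which adds genes to the adjustment, the members lower in siMYCN fell from 6 to 3 and the siMYCN median was 0.010. In that fit 18.5% of all genes were called in siMYCN, beside 35.9% in the main fit, and the all-gene median was 0.028. With no intensity trend 4 members were lower in siMYCN, where 32.4% of all genes were called. With median-ratio rescaling the 3 medians were -0.072, 0.026 and 0.12, beside 0.0085, 0.0018 and 0.0098 over all genes. With quantile normalization they were -0.074, 0.037 and 0.14, beside 1.8e-15, -0.0027 and 0.012. Signs that changed belonged to differences with no call: with median-ratio rescaling, in siMYCN CDKN1A (-0.056), XPC (-0.013), BTG2 (-0.033) and POLH (-0.035), and in siHAND2 MDM2 (-0.038), ZMAT3 (-0.039), BTG2 (-0.0055) and TRIAP1 (-0.027). With quantile normalization they were -0.059, -0.016, -0.047 and -0.033 in siMYCN, and -0.0072, -0.034, -0.020 and -0.032 in siHAND2, for the same genes in the same order.

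Over the 9 fits that left out 1 library, the members lower in siMYCN numbered 3 to 6 (3 without siCTR replicate 2 or siMYCN replicate 2), those lower in siHAND2 1 to 2 (1 without siCTR replicate 2), and those lower in siHAND2 than in siMYCN 1 to 4 (1 without siMYCN replicate 3 or siHAND2 replicate 2). In the fits named, all-gene calls were 27.8% and 31.2% in siMYCN, 21.3% in siHAND2, and 22.5% and 21.7% between the knockdowns. The main fit gave 35.9%, 29.9% and 26.9%, so calls were lost over all genes too. The member medians ran from -0.022 to 0.0069, from 0.050 to 0.11 and from 0.079 to 0.13. Uncalled differences that crossed 0 ran, in siMYCN, from -0.051 to 0.029 for CDKN1A, -0.044 to 0.062 for BTG2, -0.077 to 0.0015 for CDIP1, -0.048 to 0.0058 for MDM2 and -0.045 to 0.027 for MDM4. In siHAND2 they ran from -0.044 to 0.052 for MDM2, -0.091 to 0.0050 for SESN3, -0.049 to 0.045 for ZMAT3, -0.049 to 0.012 for DDB2, -0.0081 to 0.040 for TRIAP1, -0.083 to 0.070 for CDIP1, -0.19 to 0.034 for FAS and -0.0040 to 0.11 for POLH. Between the knockdowns they ran from -0.031 to 0.076 for BTG2, -0.037 to 0.12 for CDIP1, -0.025 to 0.070 for MDM2, -0.0044 to 0.044 for TIGAR and -0.026 to 0.084 for POLH.

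The labels number replicates alike in each group, and deviations from the group mean correlated above 0.1 in 6 of 9 same-numbered and 2 of 18 differently numbered pairs. All pairs of number 1 and of number 3 exceeded 0.1 and none of number 2 did. Since not every same-numbered pair did, the numbers were not taken to pair libraries. With the replicate block the members called were 7 higher and 6 lower in siMYCN, 11 and 2 in siHAND2, and 11 and 4 between the knockdowns. The shares of all genes called also rose, to 40.7%, 35.1% and 32.3%, from 35.9%, 29.9% and 26.9% in the main fit. The calls it added were MDM4 (adjusted p = 0.0399) and PHLDA3 (0.0438) in siHAND2, and MDM4 (0.0238), SESN2 (0.0379), RRM2B (0.0468) and TP53I3 (0.0272) between the knockdowns. In 15 of 18 tests a library correlated best with the library of its own number, a hint from the data and not from the design. The 3 members under the filter rest on few reads, since 1 CPM stood for 21.1 to 32.7 reads.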
